A study of Homo sapiens with 17 samples.

Results

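The 10 genes described here encode ligand-regulated transcription factors other than the thyroid hormone receptors: the retinoic acid receptors RARA, RARB and RARG, the vitamin D receptor VDR, the peroxisome proliferator-activated receptors PPARA, PPARD and PPARG, and the clock receptors NR1D1, NR1D2 and RORA. They are 10 of 20033 protein-coding genes. Their regions were taken as every deposited peak overlapping the RefSeq span of a gene extended by 25 kb on each side, which gave 435 of 266843 regions over 8 lists. The rule itself uses no measured value. The study profiled TRβ, the β form of the thyroid hormone receptor, and 3 subunits of SWI/SNF chromatin remodelers by CUT&RUN, in which an antibody directs a nuclease to cut out the DNA around a bound protein. The cells were Nthy-ORI, a line derived from normal human thyroid epithelium. All groups were starved of hormone for 24 h in medium with charcoal-stripped serum and without phenol red, then given 10 nM T3, the active thyroid hormone, or its NaOH vehicle. The sample labels give a treatment time of 6 h, while the protocol text also names the later time of 24 h. Each antibody (TRβ, BRG1, ARID1A, PBRM1) had 2 vehicle and 2 T3 libraries from 500000 cells per reaction, merged by the authors into 1 list per group. An IgG library was not analysed here.

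Whether the 2 libraries of a group came from separate cultures is not stated, and with 1 merged list per group no difference between conditions could be tested. The whole lists differed in length: TRβ had 1412 regions with vehicle and 7208 with T3, PBRM1 had 9115 and 38140, BRG1 had 64299 and 55938, and ARID1A had 49021 and 41710. Read depth is not known here, so list length and depth cannot be told apart. Of 9 thyroid epithelial marker genes, 7 had a BRG1 region with vehicle, as did 2 of 3 leukocyte markers. A region near a gene is not a measure of its expression, so the lists could not check the identity of the cells.

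Nuclear receptors bind short DNA elements, often as heterodimers with retinoid X receptors, and a ligand switches the partner proteins they recruit. Retinoic acid receptors, VDR, PPARs and thyroid hormone receptors share that partner and recognise repeats of related hexamers. The Rev-erb proteins NR1D1 and NR1D2 repress, and RORA activates, genes of the circadian clock through a common element. BRG1 is an ATPase of SWI/SNF complexes, ARID1A belongs to the BAF form of the complex, and PBRM1 to the PBAF form.

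TRβ regions of the T3 list reached the 300-base promoter window (250 bases before to 50 after an annotated start) of 3 genes, and those windows are printed to show which bases were covered. They come from the RefSeq table of GRCh38.p14, read 5′ to 3′ along the gene, with the bases inside the deposited TRβ region in capitals. The RARG window is chr12:53232160-53232459 on the minus strand, with 141 bases covered. The NR1D1 window is chr17:40100540-40100839 on the minus strand, with 134 bases covered. The PPARA window, the downstream one of 2 overlapping entries, is chr22:46150538-46150837 on the plus strand, with 63 bases covered.
RARG: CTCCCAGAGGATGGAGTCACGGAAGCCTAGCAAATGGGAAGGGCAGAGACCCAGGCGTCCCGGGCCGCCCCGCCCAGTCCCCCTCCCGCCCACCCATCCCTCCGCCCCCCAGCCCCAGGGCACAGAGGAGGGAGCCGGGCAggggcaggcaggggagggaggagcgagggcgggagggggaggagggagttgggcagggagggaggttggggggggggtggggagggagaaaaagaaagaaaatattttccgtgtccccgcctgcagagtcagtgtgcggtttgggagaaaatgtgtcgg
NR1D1: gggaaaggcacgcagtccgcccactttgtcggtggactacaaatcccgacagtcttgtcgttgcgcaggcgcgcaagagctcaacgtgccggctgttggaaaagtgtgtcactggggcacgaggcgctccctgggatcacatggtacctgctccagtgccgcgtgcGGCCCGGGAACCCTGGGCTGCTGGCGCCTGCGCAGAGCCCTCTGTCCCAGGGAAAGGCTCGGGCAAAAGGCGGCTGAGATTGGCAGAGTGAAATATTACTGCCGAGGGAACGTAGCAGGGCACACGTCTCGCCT
PPARA: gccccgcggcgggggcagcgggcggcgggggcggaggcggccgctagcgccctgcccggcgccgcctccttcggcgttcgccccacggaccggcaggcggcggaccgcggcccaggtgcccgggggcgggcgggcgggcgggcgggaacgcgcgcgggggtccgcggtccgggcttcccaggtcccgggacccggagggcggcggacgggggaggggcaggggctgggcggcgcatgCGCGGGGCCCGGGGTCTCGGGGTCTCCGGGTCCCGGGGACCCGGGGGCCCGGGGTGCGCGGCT
The covered part differed among the 3: it was the upstream stretch of the RARG window, and the stretch across the start in NR1D1 and PPARA. Their GC content was 68.0%, 63.0% and 86.7%, and they held 14, 24 and 52 CpG dinucleotides, beside a median of 14 over all promoters of the table.

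The hexamer AGGTCA, searched on both strands, was in 5 of 21 promoter windows of the 9 genes with an entry, beside 13.8% of 35116 promoters. Overlapping PPARG windows, chr3:12288810-12289109 and chr3:12288820-12289119, hold the same copy and were counted separately. None of the 3 windows reached by TRβ held the hexamer. Its direct repeats with a spacing of 0 to 5 bases, written AGGTCAAGGTCA for no spacing and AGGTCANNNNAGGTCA for a spacing of 4, were in 0 of the 21 windows and in at most 0.0228% of all promoters. The E-box CACGTG, the element of the clock factors CLOCK and BMAL1, was in 2 of 21 windows, beside 7.26% of all promoters. These matches are descriptions of letters in a window and do not show binding. A pair of further windows shows the copies, with the motif in capitals: PPARG at chr3:12287118-12287417 (plus strand) with AGGTCA, and NR1D2 at chr3:23945871-23946170 (plus strand) with CACGTG.
PPARG: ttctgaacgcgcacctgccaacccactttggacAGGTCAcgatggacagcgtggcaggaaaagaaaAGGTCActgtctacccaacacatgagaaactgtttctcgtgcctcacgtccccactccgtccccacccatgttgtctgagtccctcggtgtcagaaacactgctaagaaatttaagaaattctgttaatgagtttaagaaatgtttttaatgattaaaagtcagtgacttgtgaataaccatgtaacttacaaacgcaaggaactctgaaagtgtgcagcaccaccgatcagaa
NR1D2: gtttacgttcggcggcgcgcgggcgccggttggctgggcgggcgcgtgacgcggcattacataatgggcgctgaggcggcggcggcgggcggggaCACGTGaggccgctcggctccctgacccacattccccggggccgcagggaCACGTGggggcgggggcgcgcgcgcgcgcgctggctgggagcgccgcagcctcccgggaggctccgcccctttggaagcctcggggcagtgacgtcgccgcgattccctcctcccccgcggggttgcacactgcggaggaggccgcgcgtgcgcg
In PPARG the hexamers began at -217 and -184 from the annotated start, and in NR1D2 the E-boxes began at -155 and -105. Neither window overlapped a TRβ region in either list, whereas both overlapped a remodeler region.

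With T3, TRβ regions lay in the windows of RARA, RARG, VDR, PPARA, PPARD and NR1D1, and the only TRβ vehicle region lay in that of PPARD. Thus 6 of the 10 genes had a TRβ T3 region, beside 39.3% of all protein-coding genes, and 1 had a TRβ vehicle region, beside 11.1%. For 5 genes the T3 list alone had a TRβ region, beside 30.9% of all genes. The members' windows are longer than usual, with a median of 124.54 kb against 74.115 kb over all genes, and a longer window can hold more regions.

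BRG1 regions were in the windows of all 10 genes in both conditions, where the background was 82.8% of genes with vehicle and 79.8% with T3. ARID1A regions were in 9 windows in each condition (background 79.5% and 76.0%), and the gene without one was RARB. PBRM1 regions were in 8 windows with vehicle and 9 with T3, where the background was 44.0% and 78.1%. Apart from PBRM1 with vehicle, these shares lie high for genes in general, so presence alone says little about the 10 genes.

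**Figure D1:**
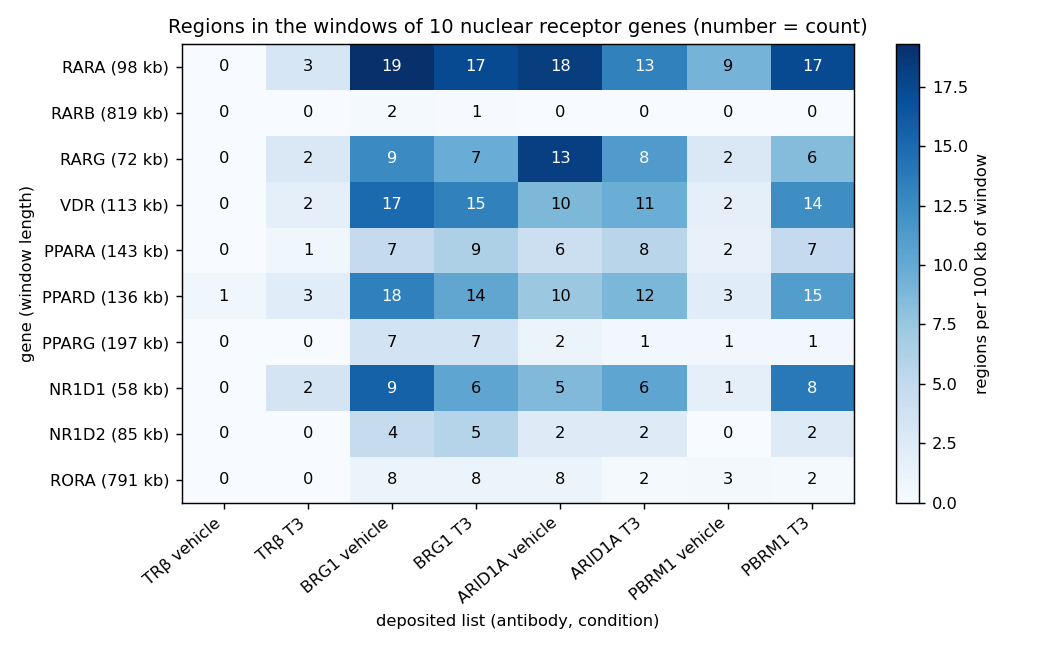
Number of deposited regions in the window of each gene (rows, with window length) in each of the 8 lists (columns), with the colour giving regions per 100 kb of window. RARA has the deepest colours and RARB has 2 and 1 BRG1 regions and none in the other lists.

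Per length of window the genes differed widely. Over the 8 lists, RARA had 97.5 regions per 100 kb, RARG 65.6, NR1D1 64.0, VDR 62.6 and PPARD 56.04. PPARA had 27.9, NR1D2 17.6, PPARG 9.65, RORA 3.92 and RARB 0.366. The median over all protein-coding genes was 15.2, with 10th and 90th percentiles of 0.232 and 61.0. RARA, RARG, NR1D1 and VDR therefore lay above the 90th percentile, RARB was near the 10th, and the median of the members was 42.0.

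**Figure D2:**
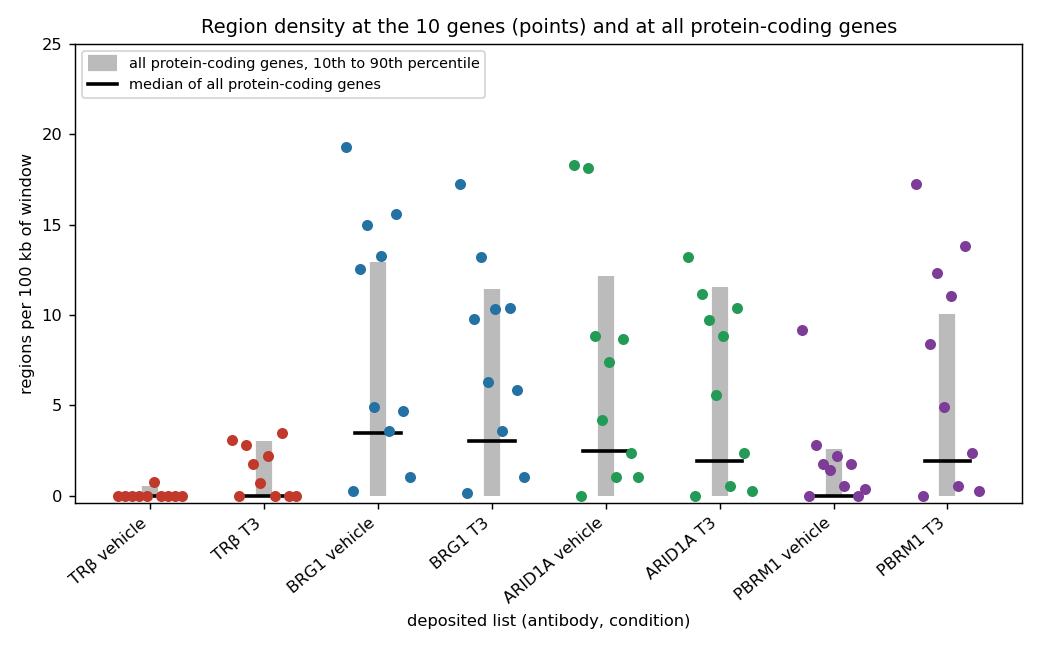
Regions per 100 kb of window for the 10 genes (points) in each list, over the 10th to 90th percentile (grey bar) and the median (black line) of 20033 protein-coding genes. With TRβ and T3 the points run from 0 to 3.46, the value of NR1D1.

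The 13 TRβ T3 regions at these genes were spread around the middle of their list, with 7 above its median signal. Their summed signal, a deposited value that adds the 2 libraries, ran from 8.44 to 13.4 with a median of 10.2, beside 10.1 for the whole list and a maximum of 94.7. The highest, in RARG, ranked 1299 of 7208. At an irreproducible discovery rate (IDR, the estimated rate at which peaks fail to recur between replicates) of at most 0.01, 5 of the 13 remained, in RARA, RARG, PPARD and NR1D1. The first library columns had the larger value in 7 of the 13 regions. By position, 8 regions overlapped the span of a member and 5 lay outside it, of which 3 overlapped another protein-coding gene.

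**Figure D3:**
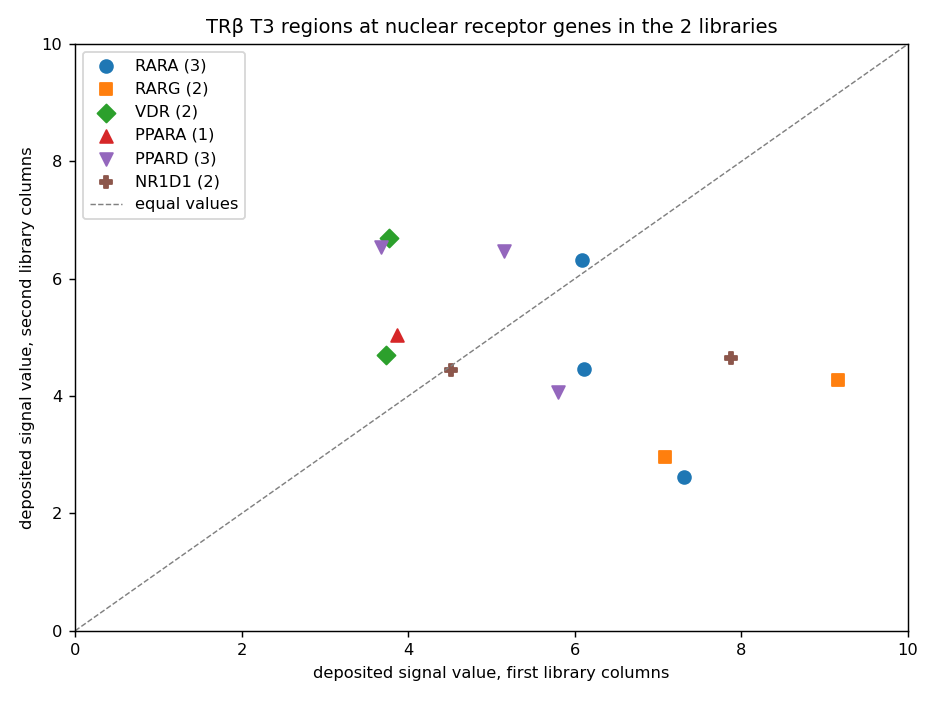
Deposited signal values of the 13 TRβ T3 regions in the first (x axis) and second (y axis) library columns, with a symbol for each gene and the line of equal values. RARG lies to the right with 9.16 and 4.28, while the points of VDR and PPARA lie above the line.

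RARA encodes the retinoic acid receptor found in most tissues, and spans chr17:40309180-40357643 on the plus strand. It held 3 TRβ regions with T3 and 0 with vehicle, all inside the gene. The region at chr17:40331642-40332659 had a summed signal of 12.4, from 6.08 and 6.31 in the 2 libraries. The region at chr17:40322486-40323218 had 10.6, from 6.11 and 4.47. The region at chr17:40315954-40316588 had 9.94, from 7.32 and 2.63, with an IDR of 0.0413, and its libraries differed most of the 3. These 3 regions lay 22.97, 13.7 and 7.09 kb from the upstream end of the gene, and none was within 1 kb of its 3 annotated starts.

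Each TRβ region in RARA overlapped BRG1, ARID1A and PBRM1 regions of the T3 list. The pair nearer the start also overlapped a PBRM1 vehicle region, whereas the PBRM1 region at the third was in the T3 list alone, with a signal of 11.7 from 5.79 and 5.88. The strongest PBRM1 T3 region of the gene, chr17:40324394-40327135, had 32.8, from 10.7 and 22.1. RARA held the widest merged site of all, 12079 bp at chr17:40315191-40327269, to which 7 of the 8 lists contributed. PBRM1 regions in its window numbered 9 with vehicle and 17 with T3, against 19 and 17 for BRG1 and 18 and 13 for ARID1A. The PBRM1 vehicle region chr17:40318829-40324825, 5997 bp wide, overlapped several separate T3 regions. By merged site, PBRM1 in RARA was in both conditions at 4, in the T3 list alone at 2 and in the vehicle list alone at 2.

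RARG encodes the retinoic acid receptor best known from skin and cartilage, and spans chr12:53210569-53232209 on the minus strand. Its TRβ region at chr12:53220416-53221887 had a summed signal of 13.4, from 9.16 and 4.28. The second, chr12:53232319-53233013, had 10.1, from 7.08 and 2.97. It lay 110 bp beyond the upstream end of the span and is the one in the RARG promoter window printed above. In both, the first library columns had more than the second, and neither region had a counterpart in the vehicle list. Both overlapped BRG1 and ARID1A regions in each condition and PBRM1 regions in the T3 list alone.

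The PBRM1 T3 region at the RARG start, chr12:53230902-53234241, had a signal of 37.7, from 12.8 and 24.9, and ranked 253 in its list. The PBRM1 vehicle region there, chr12:53230465-53232193, had 24.5, from 12.4 and 12.1, and ended before the TRβ region began. PBRM1 regions in the RARG window numbered 2 with vehicle and 6 with T3. ARID1A went from 13 to 8, and BRG1 from 9 to 7.

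RARB, the third retinoic acid receptor and a textbook retinoic acid target gene, spans chr3:24829321-25597932 on the plus strand. Its window of 819 kb held no TRβ, ARID1A or PBRM1 region in any list. BRG1 had 2 regions with vehicle and 1 with T3. The stronger, chr3:25581076-25582580, had a vehicle signal of 14.3, from 10.3 and 3.94, and overlapped the T3 region, which had 9.50, from 6.97 and 2.53. It lay 752.5 kb from the upstream end of the span. The nearest TRβ T3 region outside the window was 1171 kb away.

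VDR encodes the receptor for calcitriol, the hormone form of vitamin D, and spans chr12:47841537-47904994. Both of its TRβ T3 regions lay below the span. The region at chr12:47819583-47821114 had a summed signal of 10.5, from 3.77 and 6.70, and was inside HDAC7, a histone deacetylase gene, 20.4 kb from VDR. The region at chr12:47830268-47830781 had 8.44, from 3.73 and 4.71, with an IDR of 0.0476. It overlapped no BRG1, ARID1A or PBRM1 region in either condition, the only TRβ region of the 13 for which this was so. In both regions the second library columns had the larger value.

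The HDAC7 site had the strongest PBRM1 regions in any of the 10 windows. The vehicle region chr12:47816536-47822978 had 61.8, from 28.8 and 33.0, and ranked 10 of 9115. The T3 region chr12:47816475-47820605 had 53.3, from 22.8 and 30.6, and ranked 36 of 38140. Over the VDR window PBRM1 went from 2 regions with vehicle to 14 with T3, while BRG1 went from 17 to 15 and ARID1A from 10 to 11. At the upper end of the span itself, BRG1, ARID1A and PBRM1 each had a region within 1 kb in both conditions, and TRβ had none.

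PPARA encodes the receptor that drives fatty acid oxidation in liver, and spans chr22:46150526-46243756 on the plus strand. It had 1 TRβ T3 region, chr22:46150775-46151278, with a summed signal of 8.90, from 3.86 and 5.04. Its midpoint was 238 bp from an annotated start, in the promoter window printed above. It overlapped BRG1 and PBRM1 in both conditions and ARID1A in the vehicle list only. The ARID1A vehicle region, chr22:46149323-46151400, had 24.4, from 12.9 and 11.5, whereas the ARID1A T3 region of 14.2, from 9.02 and 5.15, ended at 46150393, before the TRβ region. The PBRM1 T3 region, chr22:46149471-46152043, had 27.8, from 7.23 and 20.6. PBRM1 regions in the window numbered 2 with vehicle and 7 with T3.

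PPARD, the PPAR found in most tissues, spans chr6:35342558-35428178 on the plus strand and was the member with a TRβ region in both lists. The T3 region chr6:35424027-35425370 had a summed signal of 11.6, from 5.15 and 6.47. The vehicle region chr6:35424182-35424921 inside it had 10.9, from 5.35 and 5.54. These lay 82.1 kb into the gene, overlapped BRG1 in both conditions and ARID1A in the T3 list only, and overlapped no PBRM1 region. The other PPARD regions lay at neighbours. The region chr6:35318205-35319157, inside DEF6, had 10.2, from 3.68 and 6.54. The region chr6:35451972-35452660 had 9.87, from 5.80 and 4.07. It lay across an end of FANCE, a DNA repair gene, with its midpoint 0.022 kb from that end.

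The FANCE region, 23.8 kb from PPARD, was the farthest inside a window, and the next TRβ T3 region on that side, at 30.0 kb with a signal of 8.98, fell outside. At the PPARD start, PBRM1 had 20.9 with T3, from 12.3 and 8.58, and 15.01 with vehicle, from 6.30 and 8.71. ARID1A had a start region in the T3 list alone, at 18.5 from 8.63 and 9.91. PBRM1 regions numbered 3 with vehicle and 15 with T3, BRG1 18 and 14, and ARID1A 10 and 12.

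PPARG, the regulator of fat cell formation and the partner of PAX8 in a fusion gene of some thyroid carcinomas, spans chr3:12287368-12434344 on the plus strand. TRβ had no region in its window, and BRG1 had 7 in each condition. The strongest BRG1 vehicle region, chr3:12405292-12406432, had 28.8, from 21.7 and 7.08, and the T3 region there had 13.6, from 9.37 and 4.20. These are values of separate lists and give no change. PBRM1 had 1 region in each condition, at the start: 18.9 with vehicle, from 8.16 and 10.8, and 14.4 with T3, from 9.52 and 4.88. ARID1A had a region at the start in the vehicle list only, at 11.6 from 4.54 and 7.04.

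NR1D1 encodes Rev-erbα and overlaps in its span the end of THRA, the gene for the α thyroid hormone receptor. It spans chr17:40092793-40100589 on the minus strand. TRβ had 2 T3 regions overlapping this span and none with vehicle. The stronger, chr17:40099085-40099683, had a summed signal of 12.5, from 7.87 and 4.64, and lay 1205 bp from the start. The other, chr17:40100097-40100673, had 8.95, from 4.51 and 4.44, and lay 204 bp from the start. Both fell within 1 BRG1 region, chr17:40098237-40101811 with vehicle (45.9, from 21.9 and 24.0) and chr17:40098243-40102066 with T3 (32.4, from 18.996 and 13.5).

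ARID1A covered the same stretch of NR1D1 in both conditions, with 30.0 from 6.63 and 23.4 for vehicle and 29.3 from 10.2 and 19.1 for T3. PBRM1 did so in the T3 list alone, with 14.4 from 7.81 and 6.63. In the NR1D1 window PBRM1 had 1 region with vehicle and 8 with T3, and the strongest T3 region, chr17:40068914-40070851 inside THRA, had 28.7, from 20.6 and 8.05. Regions cannot be assigned to NR1D1 or THRA: both TRβ T3 regions, and 7 of the 8 PBRM1 T3 regions, also lay in the window of THRA.

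**Figure D4:**
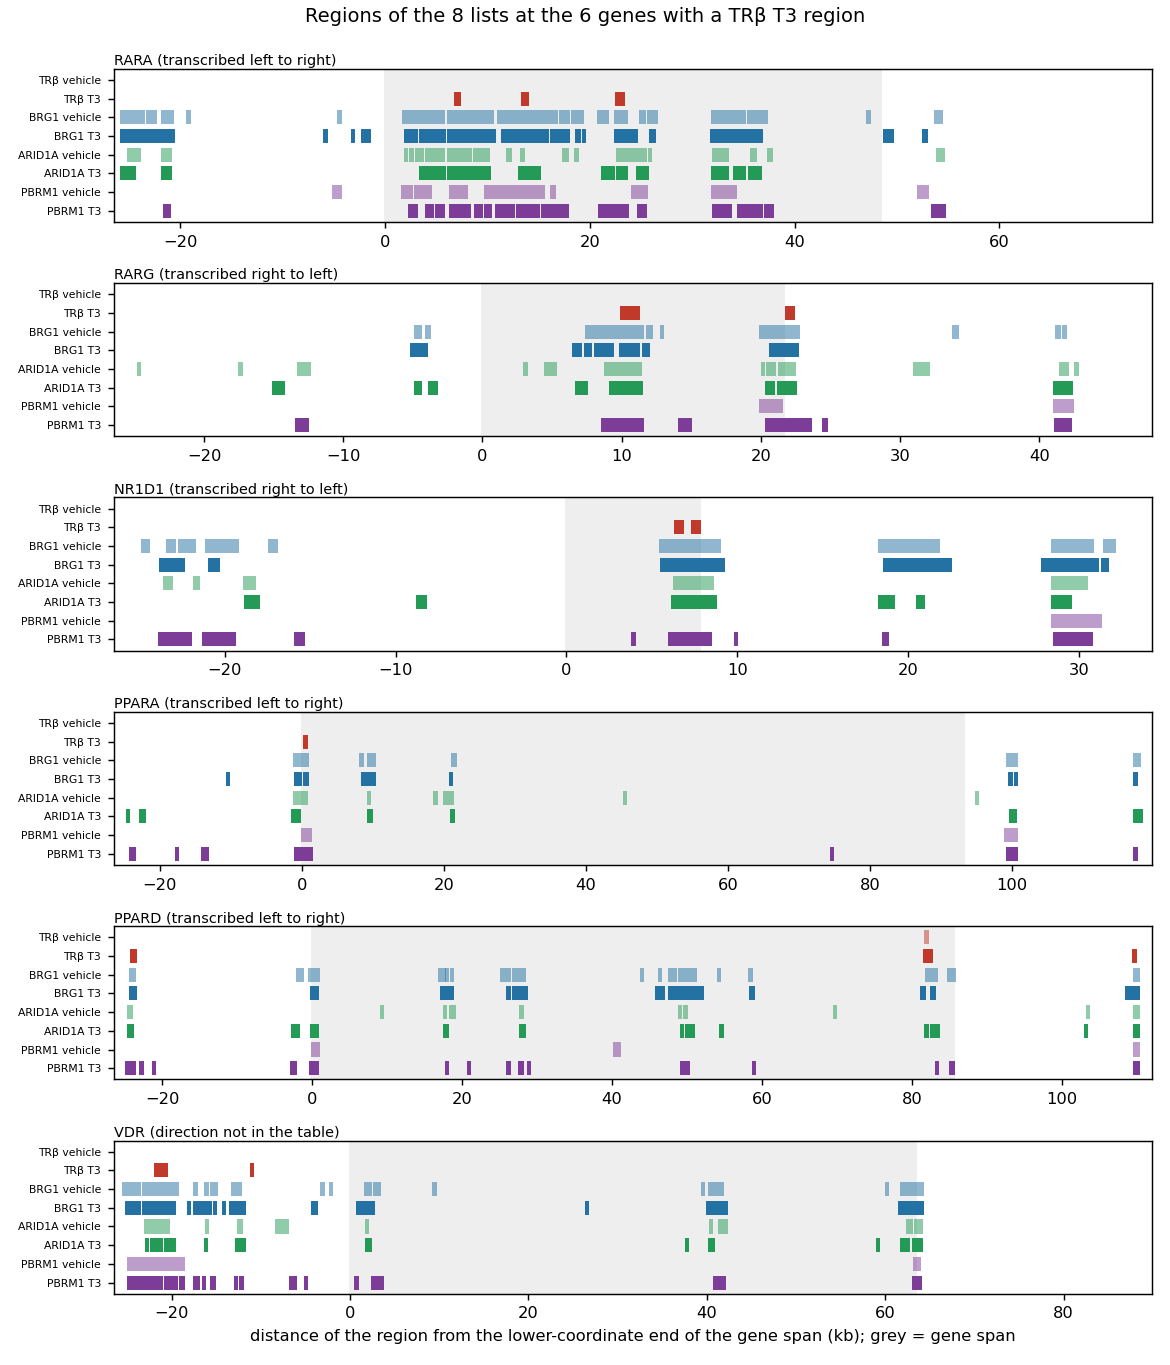
Position of every region in the 8 lists (rows, vehicle pale and T3 dark) at the 6 genes with a TRβ T3 region, in kb from the lower-coordinate end of the gene span (grey), with regions drawn at no less than 1/250 of the window length so that short ones can be seen. The TRβ marks of RARA lie inside the span, those of NR1D1 overlap it, those of VDR lie to its left, and those of PPARD lie at 3 separate places.

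NR1D2, which encodes Rev-erbβ, spans chr3:23945286-23980617 on the plus strand. It had no TRβ region, and the nearest TRβ T3 region outside the window was 287 kb away. At its start, where the promoter window with E-boxes lies, BRG1 had 13.9 with vehicle, from 9.29 and 4.60, and 23.9 with T3, from 13.8 and 10.1. ARID1A had 24.3 with vehicle, from 15.7 and 8.67, and 19.4 with T3, from 7.22 and 12.1. PBRM1 had a region there in the T3 list only, chr3:23944627-23946737, with 15.9 from 8.16 and 7.72. NR1D2 thus shared with NR1D1 a start with BRG1 and ARID1A in both lists and PBRM1 in the T3 list alone, and differed in having no TRβ region.

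RORA, the activating counterpart of the Rev-erb genes, spans chr15:60488284-61229302 on the minus strand. It had no TRβ region in its window of 791 kb, and the nearest TRβ T3 region outside was 65.3 kb away. Its strongest BRG1 region, chr15:61227281-61229986, was at the upper end of the span, which is the upstream end on this strand. It had 43.1 for vehicle, from 26.4 and 16.7, and the T3 region there had 31.1, from 16.8 and 14.3. BRG1 had 8 regions in each condition, ARID1A had 8 with vehicle and 2 with T3, and PBRM1 had 3 and 2. RORA was the only member with fewer PBRM1 regions with T3 than with vehicle. The PBRM1 region found with vehicle alone, chr15:60591148-60592608, had 18.7 with vehicle, from 8.97 and 9.71. The strongest PBRM1 T3 region, with 19.5 from 13.3 and 6.21, was inside the neighbouring gene ICE2.

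**Figure D5:**
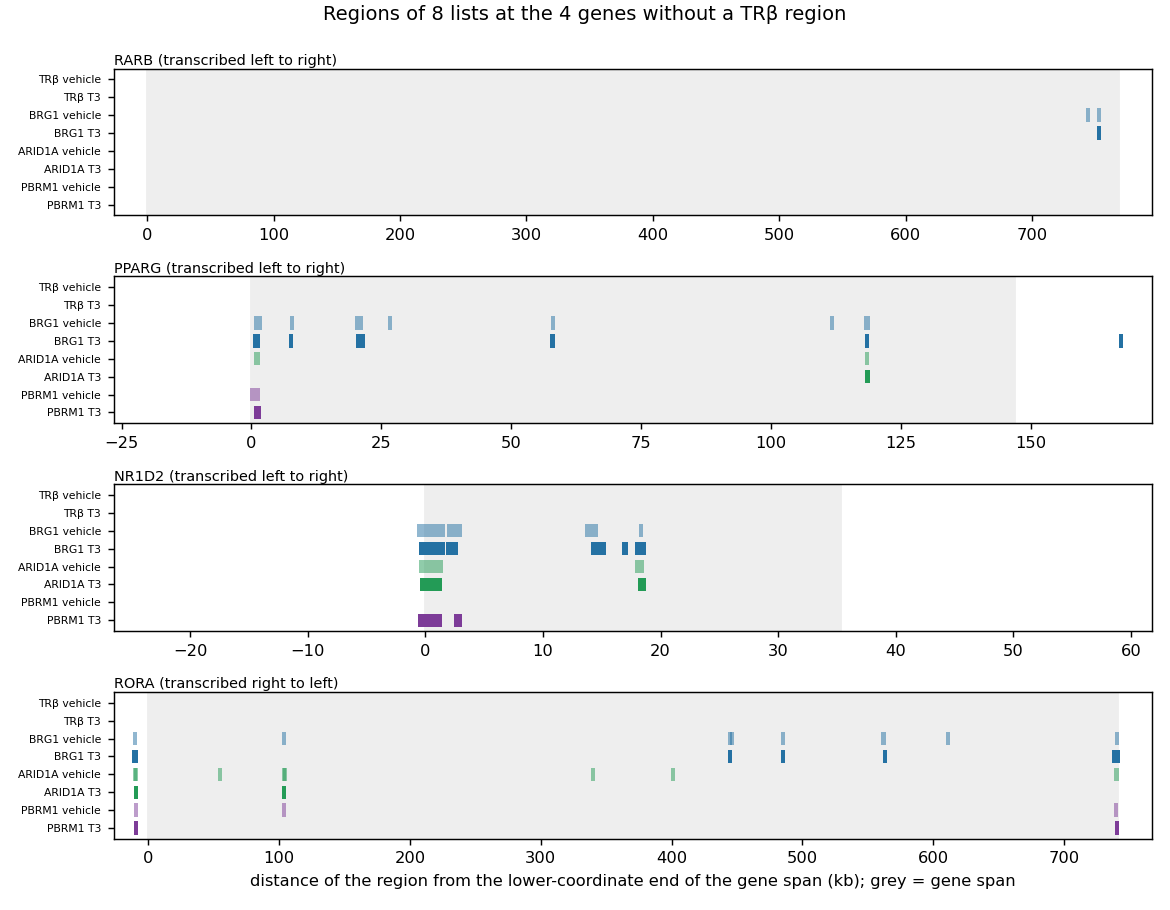
The same map for the 4 genes without a TRβ region, in kb from the lower-coordinate end of the span (grey). Regions of NR1D2 and PPARG gather near the left end, their start, and those of RARB are BRG1 alone.

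Counting starts, 9 members have an annotated start in the promoter table, beside 15842 protein-coding genes with one. A TRβ T3 region had its midpoint within 1 kb of a start in 3 of the 9 (RARG, PPARA and NR1D1), beside 18.4% of genes, and a TRβ vehicle region in 0, beside 3.03%. BRG1 had a region at 7 starts in each condition (63.1% of genes with vehicle and 58.7% with T3), and ARID1A at 6 in each (51.3% and 53.6%). PBRM1 was at 5 with vehicle, beside 21.5%, and 7 with T3, beside 60.0%. The starts that PBRM1 had in the T3 list alone were those of NR1D1 and NR1D2. The only RORA start in the promoter table, at chr15:60627530, lies inside the gene and had no region of any list within 1 kb. The merged site at the upstream end of RORA, chr15:61226892-61229986, is therefore not counted. It had BRG1 and PBRM1 in both conditions and ARID1A with vehicle.

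Across the 10 windows, PBRM1 regions numbered 23 with vehicle and 72 with T3, a ratio of 3.13 with an exact 95% interval of 1.93 to 5.25, which covers counting error over regions only. The ratio of the whole lists was 4.18, so the windows had no larger ratio than the lists themselves. More PBRM1 regions with T3 than with vehicle were found in 7 members, beside 69.5% of all genes. PPARG had equal numbers, as had RARB with none, and RORA had fewer. With both PBRM1 lists cut to the same length by signal, which fixes the ratio of the whole lists at 1, the ratio in the windows was 0.913. Keeping peaks with an IDR up to 0.01 gave a ratio of 5.67. The ratio of the whole lists at that cutoff was not computed, so 5.67 cannot be set beside 4.18.

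BRG1 regions numbered 100 with vehicle and 89 with T3, a ratio of 0.890 (interval 0.661 to 1.20), beside 0.870 for the whole lists. More BRG1 regions with T3 were found in 2 members, PPARA and NR1D2, beside 19.8% of all genes. ARID1A regions numbered 74 and 63, a ratio of 0.851 (interval 0.599 to 1.21), the same to 3 digits as that of the whole lists. More with T3 were found in 4 members (VDR, PPARA, PPARD and NR1D1), beside 25.7%. At an IDR of at most 0.01 the ARID1A ratio was 1.21, on the other side of 1. The whole lists were not compared at that cutoff, so whether they turn as well is not known here.

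TRβ regions numbered 1 with vehicle and 13 with T3, and 12 of the 13, or 92.3% (exact interval 64.0 to 99.8), had no overlap of even 1 bp in the vehicle list, beside 93.0% of the whole list. With TRβ lists of equal length, 1 T3 region was left in the windows, in RARG. Among PBRM1 T3 regions, 49 of 72, or 68.1% (interval 56.01 to 78.6), were in the T3 list alone, beside 79.2% of the whole list. For BRG1 T3 regions this share was 19.1%, beside 23.3%, and for ARID1A T3 regions 33.3%, beside 46.5%. Each of these shares at the 10 genes lay below that of its whole list. For PBRM1 and ARID1A the whole list lay just above the members' interval. That interval covers counting error only and treats regions clustered in the same windows as independent. Median widths in the remodeler T3 lists were larger at the 10 genes than in the whole lists. They were 986.5 beside 806 bp for PBRM1, 989 beside 770 bp for ARID1A and 907 beside 840.5 bp for BRG1. For TRβ T3 the median was smaller, 695 beside 723 bp. The part of width in these shares was not tested.

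Of the 13 TRβ T3 regions, 12 overlapped BRG1 with vehicle and 12 with T3 (92.3% each, interval 64.0 to 99.8), beside 70.5% and 68.2% of all TRβ T3 regions. ARID1A was at 11 in each condition (84.6%, interval 54.6 to 98.1), beside 65.0% and 66.3%. PBRM1 was at 5 with vehicle (38.5%, interval 13.9 to 68.4), beside 22.96%, and at 11 with T3 (84.6%), beside 62.4%. All 3 remodelers of the T3 lists were at 10, or 76.9% (interval 46.2 to 94.96), beside 53.7%. At 6 of the 13, or 46.2%, PBRM1 was in the T3 list alone, beside 40.8%. Each of these whole-list values lies inside the members' interval. With a reciprocal overlap of 50% in place of 1 bp, the share with PBRM1 T3 was 23.1% and that with BRG1 vehicle 38.5%. Median widths at the 10 genes were 695 bp for TRβ T3, 986.5 bp for PBRM1 T3 and 906.5 bp for BRG1 vehicle. The part of width in these lower shares was not tested.

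Merging overlapping regions of all lists gave 131 sites at the 10 genes. Of these, 41 had BRG1 alone, 22 ARID1A alone and 14 PBRM1 alone, and 25 had all 3 remodelers without TRβ. TRβ was at 11 sites, with all 3 remodelers at 10 of them and alone at the VDR site described above. A merged site can hold regions that do not touch each other, as with PBRM1 and TRβ at the PPARD site. BRG1 was in both conditions at 50 sites, in the T3 list alone at 16 and in the vehicle list alone at 26. ARID1A was in both at 31, T3 alone at 14 and vehicle alone at 21. PBRM1 was in both at 16, T3 alone at 40 and vehicle alone at 4. Merged sites were not made for other genes, so no share over all genes stands beside these counts. The whole PBRM1 lists hold 9115 regions with vehicle and 38140 with T3, and 79.2% of the T3 regions are in the T3 list alone. The counts of sites therefore do not set the 10 genes apart.

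The presence or absence of a region over the 8 lists was compared with 38 other nuclear receptor genes. RARA, RARG, VDR, PPARA and NR1D1 had regions in every list but TRβ vehicle, as had 8 of the 38. The share of all protein-coding genes with each pattern is not given here, so how common a pattern is cannot be read from these counts. Nearest in regions per 100 kb was RXRA for RARA, with 99.3 beside 97.5, and THRA for RARG, VDR and NR1D1, with 57.5. The windows of NR1D1 and THRA overlap, so the likeness of these genes rests in part on the same regions. Among those shared were 7 of the 9 BRG1 vehicle and 7 of the 8 PBRM1 T3 regions of NR1D1. PPARG and RORA shared their pattern with THRB, the gene of TRβ itself, NR1H3 and NR0B2. NR1D2 shared its pattern with HNF4A and NR2C1, RARB with RXRG, and PPARD with NR4A1. Among the 38, 18 had a TRβ T3 region, beside 39.3% of all genes, and 3 a TRβ vehicle region, beside 11.1%. The strongest T3 regions were near NR1H2 (22.7, from 12.5 and 10.2), ESRRA (22.4, from 13.5 and 8.90) and NR2F6 (20.5, from 9.72 and 10.8). These signals were above every TRβ T3 region of the 10 members. The ESRRA region overlapped its gene, while those of NR1H2 and NR2F6 lay outside theirs.

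Genes that act with these receptors were counted in the same way. Of 17 retinoid pathway genes 4 had a TRβ T3 region, the strongest at TGM2, a transglutaminase (13.5, from 6.74 and 6.73). The others named were DHRS3, a retinaldehyde reductase (11.3), and CRABP2, a retinoic acid carrier (9.73). The regions of TGM2, DHRS3 and CRABP2 lay outside these genes, within 25 kb. Of 12 vitamin D pathway genes 4 had one, led by CYP27B1, the enzyme that makes calcitriol (13.98, from 7.88 and 6.10), then TRPV6, a calcium channel (12.1), and CUBN, a receptor for vitamin D carrier uptake (9.02). The CUBN region overlapped its gene, while the CYP27B1 and TRPV6 regions lay outside theirs. The share of all genes with a TRβ T3 region, 39.3%, stands beside both counts.

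Of 21 PPAR pathway genes 7 had a TRβ T3 region, beside 39.3% of all genes. The strongest was at ANGPTL4, a lipase inhibitor and PPAR target (21.1, from 13.6 and 7.48), and it also overlapped the TRβ vehicle list. CPT1B, of mitochondrial fatty acid uptake, had 11.1, from 5.70 and 5.41. The ANGPTL4 and CPT1B regions lay outside these genes, within 25 kb. PBRM1 regions were near 10 of the 21 genes with vehicle and 17 with T3, shares close to the 44.0% and 78.1% of all genes.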

How the data were processed

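CUT&RUN peaks of TRβ, BRG1, ARID1A and PBRM1 in Nthy-ORI cells were used as deposited. Per the submitters' processing notes, CASAVA 1.7, Trim Galore, Bowtie2 and MACS2 were used with the build hg38; their parameters are not known here. The authors deposited 1 list per group in the layout of the IDR method, with peaks found in both libraries at rates up to 0.05. Each peak carries a deposited signal value per library and their sum, and the −log10 of the IDR is a deposited column. Signal values were used only to describe and rank within a list, and which library is which replicate is not stated. Summit columns, 16 in all, were not used.

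Regions on chromosomes 1 to 22, X and Y were counted (1-based) where they overlapped a gene span of the RefSeq table of GRCh38.p14, extended by 25 kb, by at least 1 bp. All 10 symbols matched, and 9 had promoter entries. Exons are not in the table, so exonic or intronic position is not reported. Every member is named. Regions given in full are each TRβ vehicle region, the 3 strongest TRβ T3 regions and the strongest PBRM1 T3 region of each gene, and up to 3 genes of each other list by TRβ T3 signal. A few of the genes so chosen are left out. Other remodeler regions at those places and at starts were chosen after their values were seen. The genes, lists and motifs were chosen with earlier results of these data known. Intervals are exact (Clopper-Pearson, 95%). Overlap counting was tested on planted regions at 200 genes, of which 200 were recovered with 0 wrong counts. Python 3.11.15, numpy 2.4.6, pandas 2.3.3, scipy 1.17.1 and matplotlib 3.10.9 were used.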

Additional observations from a re-analysis of the deposited data

How the results depend on the processing

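No paired analysis was possible because each list merges the 2 libraries of its group and its columns carry no replicate number. Leaving out a replicate could not be run for the same reason. Using the interval of either library for each peak gave the same values for all 8 results. These were the same peaks, each already found in both libraries, so the agreement was close to fixed in advance. It is no check on the replicates. Windows of 5 kb, 0 kb and 100 kb gave 9, 8 and 31 TRβ T3 regions in place of 13, at 5, 5 and 8 genes in place of 6. Peaks at an IDR of at most 0.01 gave 5 TRβ T3 regions, a T3-only share of 100%, a share with BRG1 vehicle of 100%, a PBRM1 ratio of 5.67 and an ARID1A ratio of 1.21, which turned from 0.851. Lists of equal length gave 1 TRβ T3 region at 1 gene, for which the T3-only share and the shares with PBRM1 T3 and BRG1 vehicle were each 100%, and a PBRM1 ratio of 0.913, which turned from 3.13; cutting the longer list removes its weaker regions by construction. The share with BRG1 vehicle was 100% with windows of 5 kb and 0 kb. Reciprocal 50% overlap gave shares of 23.1% with PBRM1 T3 and 38.5% with BRG1 vehicle. The cause of the turned ARID1A ratio was not tested, and the whole lists were not compared at an IDR of at most 0.01. Of 78 alternative values, 61 stayed within 1.5 times a count or inside the interval. That tally includes the values from the interval of either library. With 13 regions the intervals of shares are wide, and depth is unknown.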

Other observations

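Of 18 circadian clock genes found in the annotation, 11 had a TRβ T3 region within 25 kb and 5 a TRβ vehicle region, beside 39.3% and 11.1% of all protein-coding genes. The list includes genes whose levels the Rev-erb and ROR proteins control. The strongest region overlapped DBP, a clock output transcription factor. It had a summed TRβ T3 signal of 30.1, from 13.96 and 16.1, and ranked 41 of 7208. It did not overlap the TRβ vehicle list. CSNK1D, the kinase that marks PER proteins for degradation, had 18.7, from 11.5 and 7.13, in a region outside the gene. PER2, a repressor of the clock loop, had 15.3, from 9.65 and 5.63, in a region that overlapped the gene and was absent from the vehicle list. All 18 genes had BRG1 regions in both conditions, beside 82.8% of all genes with vehicle and 79.8% with T3, and ARID1A regions in both, beside 79.5% and 76.0%. PBRM1 regions were near 15 of the 18 with vehicle, beside 44.0%, and near 18 with T3, beside 78.1%. The window of a gene can include its neighbours, and no test was made of this list.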
